A study of Gasterosteus aculeatus with 227 samples.

Results

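The 5 genes cacna1bb, slc6a2, bace1, baalcb and cd4-1 of the threespine stickleback had more RNA in female than in male liver and more RNA in males than in females in gills or brain. They were selected on those differences in level, among 25994 genes listed in the count tables of brain, gills and liver, so their differences between the sexes are given here as a description and carry no test. In liver 13447 genes were tested, and 12918 genes were tested in all 3 tissues. Of those tested in liver, 73 were called higher in female liver and higher in male gills. Another count, of genes called higher in female liver and higher in male brain, was 15, and 4 of these had both male-higher calls. That left 84 genes in all. Ordered by the difference in liver, cacna1bb, cd4-1, slc6a2, baalcb and bace1 stood at ranks 2, 3, 4, 5 and 10 of those 84. The rule names no threshold. Genes of the same pattern that were not taken and lay next to them in that order were LOC120817011 at a log2 difference of 4.11 in liver (rank 1), LOC120811979 at 2.98 (rank 6) and asns at 2.44 (rank 11).

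The fish were untreated, came from a natural population in its reproductive period, and are labelled by sex and tissue, without an age. RNA of 40 females and 40 males was read with QuantSeq, which counts fragments from the 3′ ends of transcripts. Levels are counts per 1000000 gene counts of the library (CPM), and since each transcript gives about 1 fragment they need no correction for gene length. Liver libraries under 1000000 counts were left out, as the choice of the genes required, leaving 35 female and 32 male livers beside 39 and 39 brains and 36 and 36 gills.

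The gene cacna1bb encodes the pore of the N-type voltage-gated calcium channel, which opens at nerve endings and lets in the calcium that triggers transmitter release. slc6a2 encodes the noradrenaline transporter, which clears noradrenaline from around sympathetic nerve endings. bace1 encodes beta-secretase, a membrane protease that makes the first cut in the amyloid precursor protein and also cuts neuregulin. baalcb is related to human BAALC, a small membrane-attached protein known from brain and from acute leukaemia, where it binds a kinase of the MAP kinase cascade. cd4-1 encodes a fish form of CD4, the co-receptor with which helper T cells read peptides on MHC class II. In breeding females the liver makes vitellogenins, the egg yolk precursors, under the control of estrogen, and vtg3 served here as the sign of that state. All 5 genes lie on autosomes in the reference gene table.

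A few libraries bear on what follows. Total counts of the libraries used ran from 86631, in female brain replicate 8, to 28095335. Neuron markers were present where the labels say brain: the summed median of 15 neuron markers was 7281 CPM in female brain against 88.2 CPM in female gills and 27.8 CPM in female liver. Male liver replicates 32 and 35 had vtg3 at the level of females (5395 and 11575 CPM), and female liver replicates 17 and 23 had it at the level of males (40.4 and 15.2 CPM). These livers are counted below as against their label on vtg3 alone, which does not show a wrong sex label. Brain and gill libraries of the same fish were not counted so. Values without these livers are selected on vtg3 and do not correct labels. The male fish of brain replicate 12 and gill replicate 11 had Y genes that are absent from females at 14.2% and 18.3% of the median of the other males. Results that rest on these libraries are given with and without them.

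**Figure D1:**
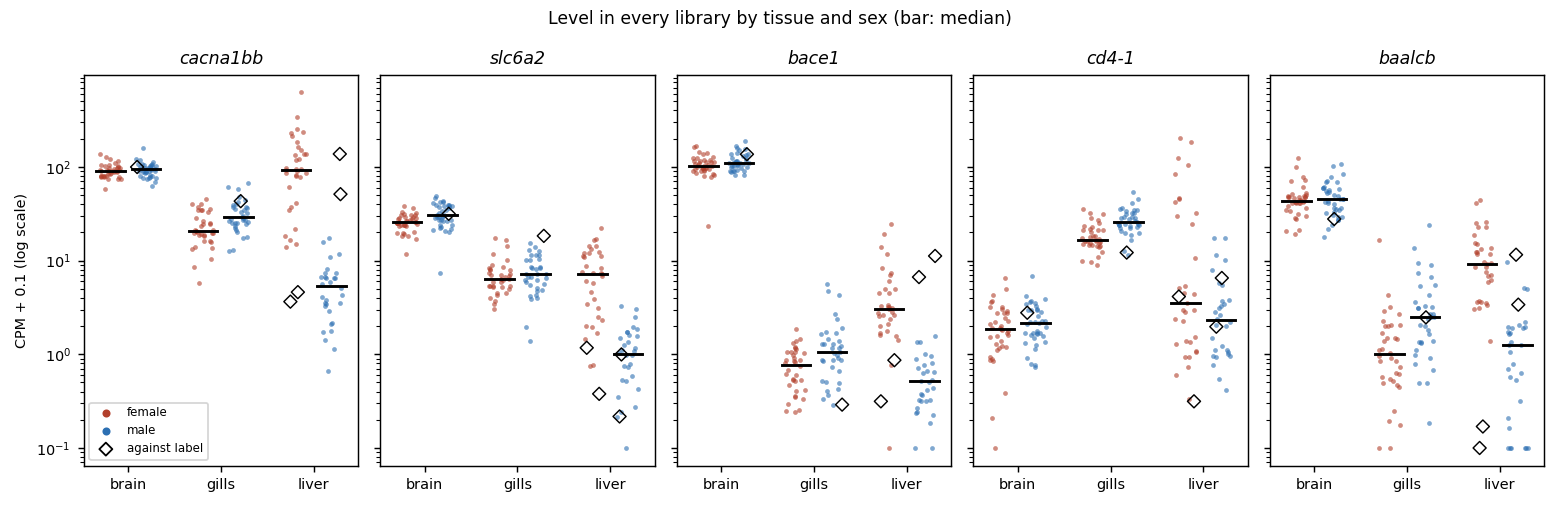
Level of each gene in every library used, as CPM + 0.1 on a log axis, by tissue and sex. Each point is a library, the black bar is the group median, and open diamonds are libraries that go against their label. In liver the female points lie above most male points for each gene except cd4-1, for which 11 of 35 females stand apart above 20 CPM.

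The calcium channel gene cacna1bb had in female liver a level that is otherwise that of brain. In 35 female livers it ran from 3.55 to 625 CPM with a median of 92.5 CPM, and in 32 male livers from 0.557 to 137 CPM with a median of 5.29 CPM. In brain the medians were 90.3 CPM in females and 94.1 CPM in males, and in gills 20.6 and 28.8 CPM. In liver 33 of 35 females stood above the male median, although the groups overlapped. Livers with vtg3 at the level of the other sex stood at the ends of both ranges. The highest males were replicates 32 (137 CPM) and 35 (51.1 CPM), and the next male was at 17.4 CPM. The lowest females were replicates 17 and 23 (4.51 and 3.55 CPM). The difference between the sexes in liver, female minus male, was 3.55 ± 0.47 (log2, SE). It came to 5.12 without those livers, a setting that selects on vtg3. In gills it was -0.45 ± 0.12, with 31 of 36 males above the female median, and in brain -0.05 ± 0.06.

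In order of mean level, cacna1bb was highest in female liver (120 ± 119 CPM, SD, n = 35), then in male brain (94.4 ± 16.9, n = 39), female brain (91.9 ± 15.4, n = 39), male gills (32.1 ± 12.6, n = 36), female gills (23.2 ± 9.56, n = 36) and male liver (11.1 ± 24.7, n = 32). Only the step from brain to gills exceeded the larger SD of the 2 neighbouring groups. The mean of male livers fell to 6.99 CPM without replicate 32. In the same fish, liver stood above brain in 19 of 34 females and 0 of 31 males. The paralog cacna1ba, which encodes the same kind of channel pore, was not called between the sexes in any tissue: its log2 difference in liver was -1.15 ± 0.50 (edgeR adjusted p = 0.0618), where female livers held 4.78 ± 9.87 CPM (SD, n = 35) and male livers 13.2 ± 20.3 (n = 32).

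The noradrenaline transporter gene slc6a2 was low in every male liver. It ran from 0.278 to 22.1 CPM with a median of 7.12 CPM in female livers and from 0 to 3.202 CPM with a median of 0.919 CPM in male livers. Of the 35 females, 24 stood above every male, and no male stood above the female median. Without the 4 livers of vtg3 at the level of the other sex, a setting chosen after the data were seen, 24 of 33 females stood above every male, against 30 of 33 for cacna1bb and for bace1, for which the count with those livers was 10 and 4 of 35. Male livers 32 and 35, which had vtg3 like females, had slc6a2 at 0.117 and 0.896 CPM, inside the range of the other males. Female livers 17 and 23, with vtg3 like males, had it at 1.07 and 0.278 CPM. The difference in liver was 3.23 ± 0.30 (log2, SE), and 3.35 without the libraries against their label.

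For slc6a2 the male-higher tissue was brain. It ran from 11.5 to 37.9 CPM with a median of 25.5 CPM in females and from 7.20 to 49.4 CPM with a median of 30.3 CPM in males, and 30 of 39 males stood above the female median. The 11.5 CPM was 1 count in the shallow female brain replicate 8, and the next lowest female was at 17.0 CPM. That library also had vtg3 at 669.5 CPM, against at most 45.9 CPM in the other female brains. The difference in brain was -0.28 ± 0.08, and in gills, where the medians were 6.26 and 7.06 CPM, it was -0.12 ± 0.14. In order of mean level, brain came first (male brain 31.4 ± 8.61 CPM, female brain 25.6 ± 5.29, SD, 39 libraries each). Male gills (7.84 ± 3.77, n = 36), female liver (7.42 ± 5.56, n = 35) and female gills (7.06 ± 3.36, n = 36) did not differ beyond their spread, and male liver was lowest (1.04 ± 0.80, n = 32), below female gills by more than the larger SD.

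The protease gene bace1 is a brain gene in these fish, with medians of 103 CPM in female and 110 CPM in male brain. In liver it ran from 0 to 24.5 CPM with a median of 2.94 CPM in females and from 0 to 11.1 CPM with a median of 0.415 CPM in males. Again 33 of 35 females stood above the male median, and the 2 highest males were replicates 32 (11.1 CPM) and 35 (6.57 CPM), the next being at 1.47 CPM. The difference in liver was 2.44 ± 0.46 (log2, SE) and 3.89 without the libraries against their label. In gills it ran from 0.140 to 1.78 CPM in females and from 0.187 to 5.58 CPM in males, with medians of 0.673 and 0.946 CPM. That is near the limit that 3 counts set at median depth (0.255 CPM in female gills), 6 males stood above every female, and the difference was -0.87 ± 0.25.

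In order of mean level, bace1 was at 116 ± 24.5 CPM in male brain, 106 ± 25.2 in female brain (SD, n = 39 each), 4.65 ± 5.26 in female liver (n = 35), 1.27 ± 1.23 in male gills (n = 36), 0.994 ± 2.17 in male liver (n = 32) and 0.676 ± 0.394 in female gills (n = 36). Only the step from brain to female liver exceeded the larger SD. The difference between the sexes in brain was -0.13 ± 0.08. The paralog bace2 had its highest level in gills (female gills 30.1 ± 9.72 CPM, male gills 30.6 ± 10.4, SD, 36 libraries each) and was not called between the sexes in any tissue.

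The MAP kinase partner gene baalcb had the largest opposite difference in gills. There it ran from 0 to 16.4 CPM with a median of 0.897 CPM in females and from 0.0841 to 24.1 CPM with a median of 2.38 CPM in males. Of 36 males 29 stood above the female median, although the ranges overlapped almost fully. The difference in gills was -1.23 ± 0.36 (log2, SE). The female mean of 1.57 CPM was 1.14 CPM without replicate 13, the highest. In liver it ran from 0 to 44.8 CPM with a median of 9.01 CPM in females and from 0 to 11.5 CPM with a median of 1.16 CPM in males. In 33 of 35 females it lay above the male median, 6 males had no count, and the highest male was again replicate 32.

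The difference of baalcb in liver was 3.03 ± 0.43, and 3.67 without the libraries against their label, while in brain it was -0.03 ± 0.12. In order of mean level, male brain (48.1 ± 20.9 CPM, SD, n = 39) and female brain (46.8 ± 20.1, n = 39) came before female liver (11.6 ± 10.4, n = 35), male gills (3.67 ± 4.55, n = 36), male liver (1.81 ± 2.63, n = 32) and female gills (1.57 ± 2.72, n = 36). Only the step from brain to female liver exceeded the larger SD. In the same fish baalcb was higher in liver than in gills in 31 of 33 females and in 5 of 29 males.

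The T cell gene cd4-1 differed from the other genes in that its liver difference came from part of the females. It ran from 0.215 to 204 CPM in female livers with a median of 3.45 CPM, and from 0.319 to 17.2 CPM in male livers with a median of 2.21 CPM. The medians were thus close, while 11 of 35 females and 0 of 32 males stood above 20 CPM, and 4 females stood above 100 CPM. None of the 4 livers with vtg3 at the level of the other sex was among those above 20 CPM. In them cd4-1 was at 1.87 and 6.42 CPM in males 32 and 35 and at 0.215 and 4.03 CPM in females 17 and 23. The value of female 17 was the lowest of either sex. The difference of 3.52 ± 0.63 (log2, SE) is a difference of mean levels, and it was 3.69 without the libraries against their label.

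In gills cd4-1 ran from 8.83 to 35.6 CPM in females with a median of 16.6 CPM and from 11.5 to 54.3 CPM in males with a median of 25.6 CPM. Of 36 males 32 stood above the female median, and the difference was -0.51 ± 0.12, with -0.15 ± 0.19 in brain. In order of mean level, female liver (28.0 ± 51.6 CPM, SD, n = 35), male gills (27.0 ± 8.94, n = 36) and female gills (18.5 ± 6.38, n = 36) did not differ beyond their spread. Male liver (3.87 ± 4.43, n = 32) lay below female gills by more than the larger SD, but not below female liver, and male brain (2.23 ± 1.20) and female brain (2.00 ± 1.31, n = 39 each) came last.

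By the calls that chose these genes, all 5 were called higher in female liver, where 16.1% of 13447 genes tested were, and 39.2% were called in either direction. In gills 4 of 5 were called higher in males, beside 7.45% of 17654 genes tested, and 13.5% in either direction. In brain slc6a2 alone was called higher in males, beside 2.62% of 18346 genes tested, with 4.62% higher in females and 7.24% in either direction. These counts follow from the choice and show nothing further. All 5 genes passed the filter on low counts in every tissue. The median log2 difference of all genes tested in liver was -0.12 with TMM scaling and -0.51 with library totals, against which the female-higher values of 2.44 to 3.55 stood. In bulk tissue, more cells of a type and more RNA per cell cannot be told apart.

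The library names carry a fish number, under 100 in part of the fish and over 200 in nearly all others, and the liver differences of 4 of 5 genes were larger in the latter. The split was chosen after the data were seen. Fitted within these parts, bace1 differed by 1.38 in fish under 100 and by 3.99 in fish over 200, and cacna1bb by 2.94 and 5.15. The corresponding values were 2.70 and 3.76 for baalcb, 3.55 and 4.09 for cd4-1, and 3.42 and 3.15 for slc6a2. Male livers 32 and 35 belong to the fish under 100, and female livers 17 and 23 to those over 200. In gills the male-higher direction held in both: -1.53 and -0.80 for baalcb, -0.64 and -1.14 for bace1, -0.26 and -0.60 for cacna1bb, and -0.37 and -0.65 for cd4-1. For slc6a2 in brain it was -0.18 and -0.38.

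**Figure D2:**
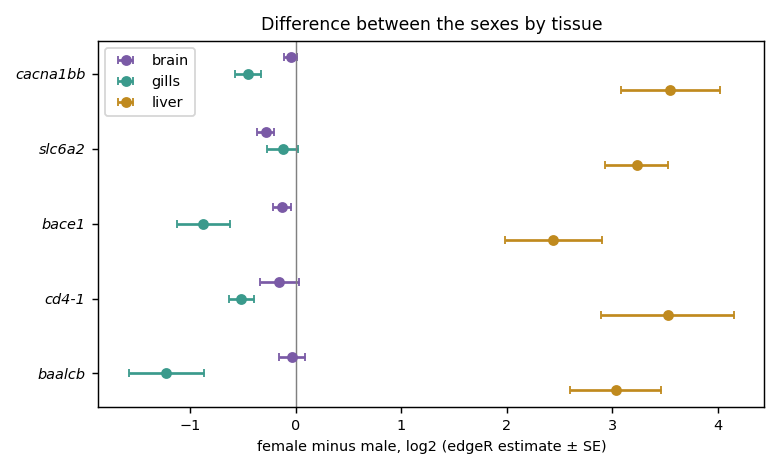
Difference between the sexes of each gene in each tissue, female minus male on the log2 scale, with bars of 1 SE from the edgeR fit. In liver the points lie between 2.44 and 3.55, and in gills and brain they lie between -1.23 and -0.03.

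The level by tissue over both sexes was not used to choose the genes, and it was tested within fish with edgeR, the fish entering as a block. Split by sex, however, the gap between female and male values against liver carries the differences on which the genes were chosen. Between gills and brain, compared in 70 fish, all 5 genes were called, as were 89.7% of 18872 genes tested, 45.2% higher in gills and 44.5% higher in brain. bace1 was lower in gills by 7.01 ± 0.16 (log2, SE), baalcb by 4.70 ± 0.19, slc6a2 by 2.01 ± 0.09 and cacna1bb by 1.84 ± 0.08, and cd4-1 was higher in gills by 3.59 ± 0.12, with adjusted p from 1.32e-54 to 2.53e-33. In each of 35 females and 35 males the other 4 genes were lower, and cd4-1 higher, in gills than in brain. Directions and calls held under every alternative tried.

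The place of liver among the tissues depended on the sex and on the scaling. Against brain, compared in 65 fish, liver was lower in bace1 (-4.39 ± 0.31, log2, SE), baalcb (-1.90 ± 0.35) and slc6a2 (-1.66 ± 0.28) and higher in cd4-1 (2.63 ± 0.34), with edgeR adjusted p of at most 1.24e-06. For cacna1bb the value was -0.36 ± 0.41 (adjusted p = 0.395). So 4 of 5 genes were called, as were 88.8% of 17655 genes tested, 39.2% higher in liver and 49.5% higher in brain. In females alone cacna1bb was higher in liver by 2.04 and in males alone it stood at -2.67. That gap carries the sex difference in liver on which the gene was chosen. In females alone baalcb and slc6a2 did not pass, at -0.17 and -0.071 (adjusted p = 0.537 and 0.783) with TMM scaling. In CPM of library totals both were lower in liver than in brain in 33 of 34 females, with medians of 8.77 against 42.8 CPM for baalcb and 6.93 against 25.4 CPM for slc6a2. On that scale cd4-1 was higher in liver than in brain in 21 of 34 females and in 17 of 31 males. Its medians were 3.17 against 1.73 CPM in females and 2.30 against 2.12 CPM in males.

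The scaling moved all values against liver together. The median of all genes between liver and brain was -0.28 with TMM and -2.18 with library totals. With library totals, a setting chosen after the data were seen, the values were -2.25 for cacna1bb, -3.88 for baalcb, -6.38 for bace1, -3.61 for slc6a2 and 0.78 for cd4-1. Relative to the median of all genes, cacna1bb lay close to it and cd4-1 above it under both scalings. The CPM levels given above are on the scale of library totals.

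Against gills, compared in 62 fish, liver was higher in baalcb (3.16 ± 0.50, log2, SE), bace1 (2.77 ± 0.39) and cacna1bb (1.67 ± 0.46) and lower in cd4-1 (-0.95 ± 0.33), while slc6a2 did not pass (0.36 ± 0.29, edgeR adjusted p = 0.244). The called genes were 4 of 5, beside 83.3% of 17043 genes tested (37.1% higher in liver and 46.2% higher in gills), and the largest adjusted p among them was 0.00765. Taken by sex, cacna1bb was higher in liver in females (3.93) and lower in males (-0.998), and slc6a2 likewise (1.79 and -1.40). In males alone bace1 was below the filter. In CPM it was higher in liver than in gills in 30 of 33 females and in 7 of 29 males. The genes were chosen on their sex difference in liver, so this turn between the sexes shows nothing further. baalcb was higher in female liver by 5.30 and did not pass in males (0.062, adjusted p = 0.913). cd4-1 was lower in male liver (-1.94) and did not pass in females (0.14, adjusted p = 0.817). With library totals cacna1bb stood at -0.25 and slc6a2 at -1.57, where the median of all genes was -2.11.

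**Figure D3:**
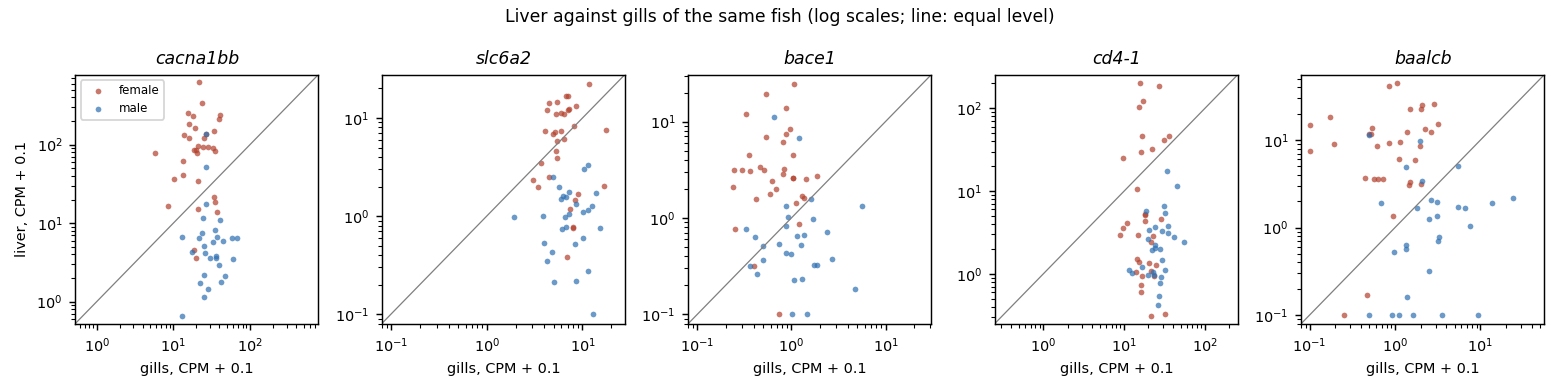
Level in liver against level in gills of the same fish, as CPM + 0.1 on log axes, for 33 females and 29 males. The grey line marks equal levels. Females lie above the line for baalcb in 31 fish, bace1 in 30, cacna1bb in 27, slc6a2 in 18 and cd4-1 in 10. Males lie above it in 5, 7, 2, 0 and 0 fish in the same order.

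Across the livers of a sex, the genes were next compared with vtg3, a relation that played no part in their choice. The 4 livers with vtg3 at the level of the other sex form separate clusters and were left out, and 10 relations were computed in 33 females and 30 males, on log2 CPM, with two-sided permutation tests of 100000 resamples. Among females, Pearson's r with vtg3 was 0.55 for baalcb (permutation p = 0.00766, adjusted 0.0383) and 0.50 for cacna1bb (p = 0.00243, adjusted 0.0243). Spearman's rho was only 0.10 (adjusted p = 0.629) and 0.22 (adjusted p = 0.422). Without the 2 livers farthest from the median of vtg3 the r fell to 0.04 and 0.18, so with TMM scaling both rest on those samples. With library totals the rho of baalcb was 0.49 (permutation p adjusted = 0.023), and its r without the 2 farthest livers was 0.29. Female replicate 21, with vtg3 at 167 CPM where the next lowest female had 4526 CPM, had baalcb at 1.27 CPM and cacna1bb at 14.9 CPM.

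With TMM scaling the other relations with vtg3 did not pass the adjustment. For bace1 in females r was 0.25 and rho 0.48 (permutation p = 0.00524, adjusted 0.0524). For slc6a2 in females r was 0.38 (permutation p = 0.0202, adjusted 0.0674) and rho 0.11. With library totals its rho was 0.69 (permutation p adjusted = 0.0004), and of the other genes only baalcb in females passed by rho. For cd4-1 in females r was 0.19 and rho 0.31, and among males no r of the 5 genes lay outside -0.28 to 0.26. Between the clusters, cacna1bb and bace1 were high in the 2 males with vtg3 like females and low in the 2 females with vtg3 like males. baalcb was low in those females and high in male 32 (11.5 CPM). In male 35 baalcb was at 3.29 CPM, inside the range of the other males, which reached 9.68 CPM. slc6a2 and cd4-1 were not high in those 2 males. With 2 such livers per sex this was not tested.

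**Figure D4:**
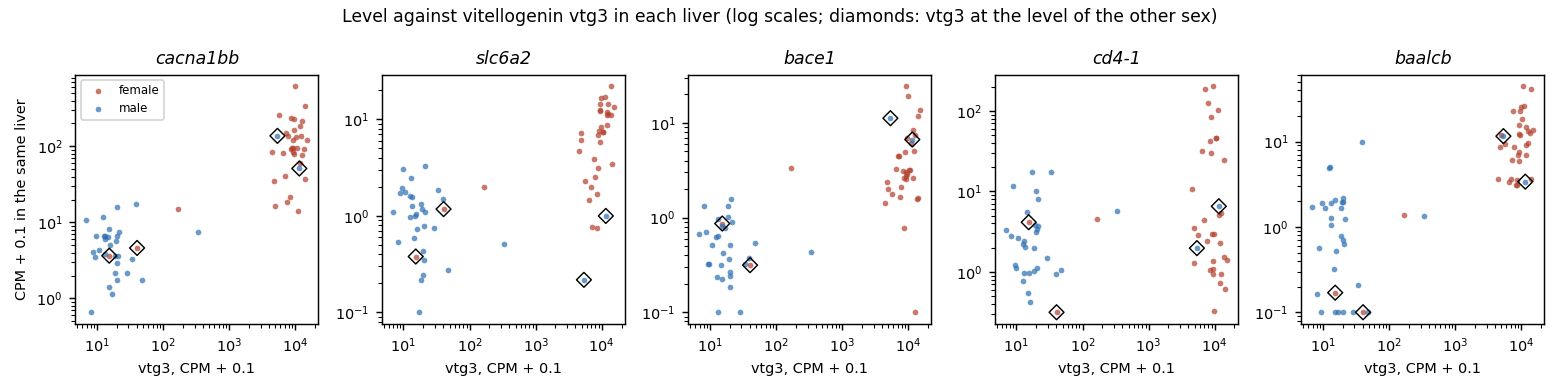
Level of each gene against vtg3 in each liver, as CPM + 0.1 on log axes, with diamonds around the 4 livers whose vtg3 stood at the level of the other sex. For cacna1bb and bace1 the 2 such males lie among the females, at 137 and 51.1 CPM and at 11.1 and 6.57 CPM. For slc6a2 they lie among the males.

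Within a tissue, the genes did not all move together over libraries. With each sex centred on its mean, 30 relations among the 5 genes were computed over 77 brain, 72 gill and 67 liver libraries, the shallow brain library left out. In liver cacna1bb and baalcb had an r of 0.70 and a rho of 0.70 (permutation p adjusted = 0.00015 each, from the smallest p that 100000 resamples give). That fell to 0.46 without the 4 libraries that go against their label and stayed at 0.60 or above without the 2 farthest samples of either gene. With 13446 other genes ordered by r from the highest, cacna1bb stood at rank 5 for baalcb, and baalcb at rank 46 for cacna1bb. The relation of cacna1bb with bace1 in liver, an r of 0.52 (permutation p adjusted = 0.0004), fell to 0.14 without those 4 libraries, and that of baalcb with bace1 from 0.45 to 0.13. The r of baalcb with slc6a2 was 0.46 (permutation p adjusted = 0.00135) and 0.34 without them. Only bace1 was related to cd4-1 in liver, at 0.33 (permutation p adjusted = 0.0261) and 0.28 without them.

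In gills, where the same genes were male-higher, cacna1bb and baalcb again moved together, with an r of 0.62 and a rho of 0.58 (permutation p adjusted = 0.00015 each), and 0.54 or above without the 2 farthest samples of either gene. Both moved against cd4-1, with an r of -0.39 for cacna1bb (permutation p adjusted = 0.00244) and -0.35 for baalcb (permutation p adjusted = 0.0109). Such values were common in gills. Of 17653 other genes ordered by r from the highest, baalcb stood at rank 536 for cacna1bb, and cacna1bb at rank 623 for baalcb. There cd4-1 stood at ranks 13593 and 13978, so many genes had a lower r with each. In brain baalcb moved against bace1, at -0.40 (permutation p adjusted = 0.0019). There cacna1bb was related to bace1 by Pearson's r (0.28, permutation p adjusted = 0.0485) and not by rho (0.24, adjusted 0.085). With the shallow library included, bace1 stood at rank 1864 of 18345 for cacna1bb, and cacna1bb at rank 5987 for bace1. In brain cacna1bb was related to cd4-1 by rho (-0.34, permutation p adjusted = 0.0154) and not by r (-0.25, adjusted 0.0743). Between tissues of the same fish, none of 30 relations passed the adjustment, with a smallest adjusted permutation p of 0.799 for Pearson's r and 0.582 for Spearman's rho. The smallest unadjusted p of r was that of cd4-1 between liver and gills of 29 males, with an r of 0.39 and a rho of 0.37 (permutation p = 0.0349 and 0.0484).

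The genes most like each of the 5 within a tissue, by Pearson's r of log2 CPM centred on each sex, are given as a description. In liver, cacna1bb was most like fam20ca (r = 0.87 over 67 libraries), adgrl2a (0.84) and LOC120825859 (0.83), and baalcb most like adgrl2a (0.78), cdk6 (0.73) and arid3c (0.72). fam20ca is related to a kinase of secreted proteins, adgrl2a encodes an adhesion receptor of the latrophilin family, and cdk6 a kinase of the cell cycle. Without the libraries against their label these values were 0.71, 0.74 and 0.60 for cacna1bb and 0.59, 0.45 and 0.53 for baalcb. The gene most like bace1 was LOC120835510 (0.72, or 0.53 without them), followed by rhoca (0.69, or 0.42 without them). For slc6a2 the most similar were LOC120809520 (0.68), LOC120824069 (0.67) and LOC120817514 (0.65), or 0.55, 0.59 and 0.58 without those libraries. For cd4-1 they were atp6v1d (0.60) and tmem199 (0.58), which both serve the proton pump of acidic vesicles, and LOC120808783 (0.56). Without those libraries these values were 0.60, 0.55 and 0.53.

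In gills the likeness differed by gene. bace1 was most like map1aa (r = 0.74 over 72 libraries), which encodes a microtubule protein of neurons, plp1b (0.73), which encodes a myelin proteolipid, and LOC120825018 (0.72). cacna1bb was most like pcdh7b (0.80), a protocadherin, LOC120830770 (0.79) and LOC120817530 (0.78). baalcb was most like srbd1 (0.80), LOC120810156 (0.80) and ofcc1 (0.80). cd4-1 was most like lcp1 (0.69), which encodes the plastin of blood leukocytes, zgc:195282 (0.69) and LOC120830453 (0.68). slc6a2 was most like LOC120809064 (0.64), itga1 (0.61), an integrin, and podxl (0.60), which encodes podocalyxin.

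In brain, cacna1bb was most like kcnh3 (r = 0.75 over 78 libraries), a potassium channel gene, grm5b (0.73), a glutamate receptor gene, and celsr3 (0.73), a cadherin gene of axon guidance. The highest likeness of all was that of bace1 with immt (0.94), emc3 (0.90) and prune2 (0.89), and it was 0.90, 0.87 and 0.84 without the shallow library and the fish against its label. slc6a2 was most like LOC120835291 (0.65), crispld1a (0.62) and LOC120818187 (0.61). cd4-1 was most like atf3 (0.70, or 0.63 without those libraries), LOC120810333 (0.66) and zgc:174888 (0.66). For baalcb no gene exceeded 0.48, the value for taok3b, followed by LOC120812254 (0.46) and LOC120823601 (0.46). In brain LOC120812254 was far lower in females (log2 difference -8.92, mean 2.52 CPM), so its r rests largely on the males.

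Markers of other cell types moved with some of these genes. In gills the summed neuron markers ran from 38.7 to 182 CPM in females with a median of 88.2 CPM, and from 52.1 to 434 CPM in males with a median of 107 CPM. Of 15 neuron markers tested there 5 were called higher in males and 0 in females by edgeR, beside 7.45% and 6.02% of all genes. Within a sex the neuron sum correlated with bace1 at 0.56, with baalcb at 0.54 and with cacna1bb at 0.47, and with slc6a2 and cd4-1 at 0.07 and -0.26. The oocyte list, 7 genes led by the germ cell genes ddx4 and dazl, stood at a median of 12.9 CPM in female and 28.6 CPM in male gills, and its sum correlated with baalcb at 0.70. In that list ddx4 ran from 0.222 to 31.7 CPM in female and from 0.949 to 52.1 CPM in male gills, and no listed gene was at 0 throughout. The testis list also stood higher in male gills, at a median of 47.0 CPM against 36.2 CPM in females. The oocyte sum therefore cannot be credited to oocytes. Which cells held the marker RNA, and their part in the gill differences, was not tested.

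In liver the hepatocyte list of 6 genes, fibrinogens among them, stood at a median of 26316 CPM in females (range 6361 to 167003) and 126632 CPM in males (range 21698 to 189255), and all 6 genes were called higher in males, as were 23.1% of all genes tested in liver. Within a sex its sum correlated at -0.66 with cacna1bb, -0.64 with bace1, -0.54 with baalcb, -0.38 with cd4-1 and -0.33 with slc6a2, and at -0.42, -0.47, -0.25 and -0.37 for the first 4 without the libraries against their label. The 24 T cell genes, cd4-1 left aside, summed to a median of 15.5 CPM in female (range 2.99 to 64.7) and 20.2 CPM in male livers (range 8.30 to 56.4). Their sum correlated with cd4-1 at -0.34 in liver, 0.17 in gills and -0.09 in brain. The sum of another list, of macrophage and B cell markers, correlated with cd4-1 at -0.23, 0.35 and 0.24 in the same order. Erythrocyte markers had a median of 23.9 CPM in female and 139 CPM in male livers. The neuron list, at 27.8 CPM in female and 57.4 CPM in male livers, had 0 of 9 genes called by edgeR, beside 39.2% of all genes. It had 0 at an unadjusted edgeR p under 0.05, beside 6349 of all 13447 genes tested, and 0 called by DESeq2, beside 5687. The part of cell make-up in the liver differences was not tested.

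**Figure D5:**
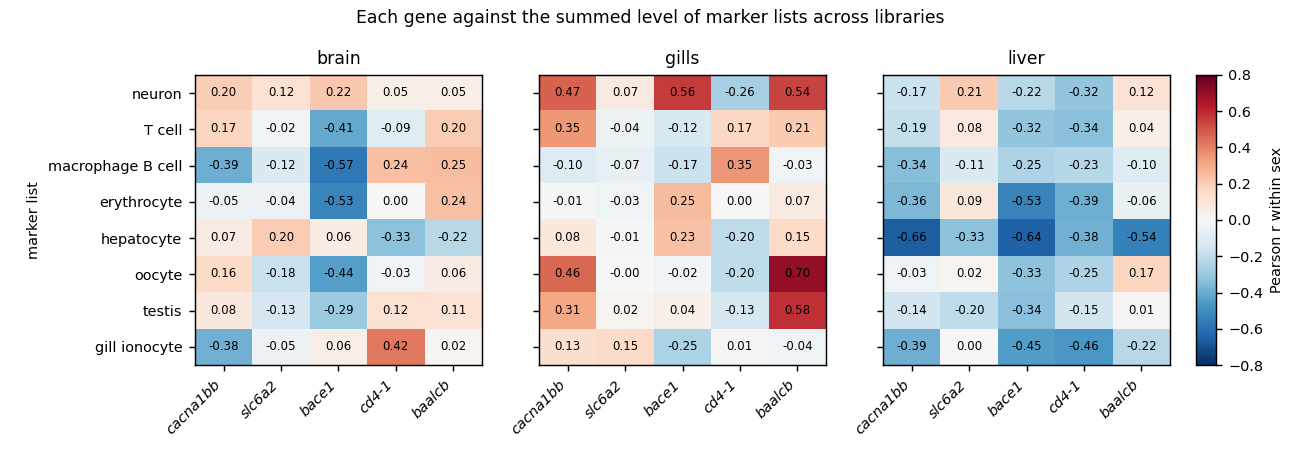
Pearson's r, with each sex centred on its mean, between each gene and the summed level of marker lists over the libraries of brain (78), gills (72) and liver (67). Red is positive and blue negative. In gills the neuron list stands at 0.47 to 0.56 for cacna1bb, bace1 and baalcb, and in liver the hepatocyte list stands at -0.54 to -0.66 for the same genes.

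None of the genes named from the pathway lists was called higher in female liver and also higher in male gills or brain. That pattern was rare among all genes, at 84 of 13447 genes tested in liver. Its absence from lists this short therefore shows nothing further. Of the calcium channel genes, 16 were tested in liver, where, beside 16.1% and 23.1% of all genes, cacna1db (1.06 ± 0.33, log2, SE, edgeR adjusted p = 0.00782) was called higher in females and cacna1sb and cacna2d2a (-0.92 and -0.35) higher in males. In gills 6 of 18 were called higher in males and 1 in females, beside 7.45% and 6.02% of all genes, with a median of -0.40 where that of all genes was 0.01. The largest were cacna2d3a (-0.97 ± 0.19, adjusted p = 5.69e-05) and cacnb4b (-0.79 ± 0.23, adjusted p = 0.0123), which encode accessory subunits, and cacna1ha (-0.63 ± 0.19, adjusted p = 0.0162), which encodes a T-type channel pore. cacnb4a, a further accessory subunit, was higher in females (0.59 ± 0.21, adjusted p = 0.0418). In brain cacna2d4b alone of 21 was called, beside 7.24% of all genes, higher in females by 0.61 ± 0.13 (adjusted p = 2.32e-04).

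Of the monoamine genes around slc6a2, 3 of 17 were called in brain, all higher in females, beside 4.62% of all genes: th, which encodes the first enzyme of catecholamine synthesis, by 1.58 ± 0.10 (log2, SE, edgeR adjusted p = 2.13e-25), and the serotonin synthesis genes tph1a (0.87 ± 0.17) and tph2 (0.69 ± 0.13). These 3 lie on the X in the reference gene table, unlike slc6a2. In liver ddc, which encodes the decarboxylase of the same pathways, and mao, which encodes the enzyme that breaks monoamines down, were called higher in males, at -3.78 ± 0.55 and -1.56 ± 0.22, 2 of 7 tested beside 23.1% of all genes. The related serotonin transporter gene slc6a4a was called in no tissue. The dopamine transporter gene slc6a3 was below the filter in liver and was not called in brain or gills, where it stood at -0.89 ± 0.32 in gills (edgeR adjusted p = 0.0505).

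Among 12 genes of the slc6 transporter family tested in gills, 3 were called higher in males, beside 7.45% of all genes: slc6a11b, a GABA transporter (-2.03 ± 0.26, edgeR adjusted p = 8.96e-10), and the glycine transporters slc6a5 (-1.01 ± 0.26) and slc6a9 (-0.31 ± 0.10). In brain slc6a15 and slc6a13, both on the X, were called higher in females (0.85 ± 0.07 and 0.79 ± 0.12), 2 of 13 tested beside 4.62% of all genes. In liver slc6a16a, 1 of 7 tested beside 16.1% of all genes, was called higher in females (2.61 ± 0.33, adjusted p = 9.01e-10). The slc6a13 and slc6a5 values in liver, -0.66 ± 0.31 and 0.59 ± 0.39, did not pass the test (adjusted p = 0.0809 and 0.235).

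For bace1, none of 17 other genes of amyloid processing was called by edgeR in brain or gills, beside 7.24% and 13.5% of all genes. At an unadjusted p under 0.05 there were 0 in brain and 1 in gills, and DESeq2 called 0 and 1. Of 16 tested in liver, 2 were called higher in females and 1 higher in males, beside 16.1% and 23.1% of all genes. There gga3a, which encodes a sorting adaptor of the protease, was called higher in females (1.03 ± 0.13, edgeR adjusted p = 6.94e-10). rtn4a, which encodes a reticulon, was called higher in males (-0.61 ± 0.11). For baalcb, map2k1 and dusp6, both on the X, were called higher in females in brain (0.88 ± 0.13 and 0.77 ± 0.19) and gills (0.84 ± 0.14 and 0.67 ± 0.20). That was 2 of 10 tested in each, beside 4.62% of all genes in brain and 6.02% in gills. In liver klf4, known in human cells as a factor held by BAALC, was called higher in males (-1.34 ± 0.29), 1 of 8 tested beside 23.1% of all genes.

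Of the other T cell genes, 2 of 20 tested in gills were called higher in males like cd4-1: cd28 (-0.70 ± 0.17, edgeR adjusted p = 0.00127), a co-stimulatory receptor, and cd40lg (-0.54 ± 0.16, adjusted p = 0.0112), a helper T cell ligand, beside 7.45% of all genes. In liver, where 7 passed the filter, rorc, a transcription factor of T cells that liver cells also use, was called higher in females (2.49 ± 0.39, adjusted p = 2.39e-07), while ptprc (-0.76 ± 0.24) and sh2d1ab (-0.83 ± 0.28) were called higher in males, beside 16.1% and 23.1% of all genes. Of 3 MHC class II genes tested in liver, ctss2.1 (-0.98 ± 0.18) and cd74a (-0.71 ± 0.19) were called higher in males, beside 23.1% of all genes.

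The genes that flank the 5 in the reference gene table were looked up with 2 positions on each side. Their calls stand beside 16.1% of all genes called higher in female liver and 23.1% in male liver. In gills the shares were 6.02% higher in females and 7.45% higher in males. slc12a4, a potassium and chloride cotransporter gene next to slc6a2, was called higher in female liver (1.73 ± 0.28, log2, SE, edgeR adjusted p = 8.64e-07). It was also called higher in male gills (-0.37 ± 0.11, adjusted p = 0.0125) and was not called in brain (-0.13 ± 0.12). slc6a2 shared the liver side only, since its male-higher call was in brain and not in gills. The sex difference of slc12a4 differed between liver and gills by 2.04 (interaction in edgeR, adjusted p = 6.83e-12), a test that called 29.7% of 20040 genes between those tissues. That fit has no term for the fish, although the tissues share fish. On the other side of slc6a2, lpcat2 was called higher in male liver (-0.49 ± 0.15, adjusted p = 0.00737) and mmp2 higher in female gills (0.41 ± 0.14, adjusted p = 0.0346). Beside bace1, tagln, a gene of smooth muscle, was called higher in female liver (1.90 ± 0.30, adjusted p = 4.02e-07), and pcsk7 by 0.49 ± 0.20 (adjusted p = 0.0463). Beside baalcb, nme6 was called higher in female liver (1.07 ± 0.34, adjusted p = 0.00909). Of the genes beside cd4-1, cops7a was called higher in male liver (-0.44 ± 0.18, adjusted p = 0.0372), and ehmt1b and man1b1a beside cacna1bb were called in no tissue. The strand setting of the counting is not given in the sources used here, so reads of neighbours that overlap cannot be told apart.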

How the data were processed

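RNA of brain, gills and liver was sequenced by the authors with a QuantSeq forward kit. The authors deposited raw counts of reads per gene, as 1 table per tissue with 1 column per library, per the file headers. Per the submitters' processing notes, fastp, STAR and HTSeq were used. Versions, strand setting, annotation and build are not given in the sources used here, so genes that overlap or have a close copy are uncertain. Lines of reads given to no gene stayed out of library sizes: reads outside genes were 12.9% of brain, 11.0% of gill and 7.28% of liver reads on average.

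The 5 genes and all gene lists were chosen with earlier results of these data known. Per group, median totals of the libraries used ran from 9775140 to 12515900 counts, at which 3 counts correspond to 0.240 to 0.307 CPM. Those limits cover counting error only, since no molecular identifiers are given. No pair of libraries of a group agreed within sampling noise (smallest chi-square per degree of freedom 11.6). Each group member is a separate fish.

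Sexes were compared within tissues by edgeR 4.0.16 quasi-likelihood tests (R 4.3.3, TMM, filterByExpr, robust, sex as only term), and tissues with the fish as a block. Sex by tissue was tested as an interaction in 1 fit over all tissues, with no fish term, although the tissues share fish and differ in spread. A call is a two-sided Benjamini-Hochberg adjusted p under 0.05 over all genes tested. The fits were tested on simulated data. SE were derived from the fold change and its F statistic. Correlations used log2 CPM (TMM, prior count 2). Genes were named by rule: the 5, their 3 most similar genes per tissue, 2 flanking genes per side, paralogs, and up to 4 called genes per list and tissue, except a gene that is not reported here. RefSeq symbols of the assembly fGasAcu3.hap1.1 gave names, chromosome class and gene order. Alternatives were DESeq2 1.42.0, limma 3.58.1 voom, other scalings, filters and sets of libraries.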

Additional observations from a re-analysis of the deposited data

Results flagged for a closer look

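In the liver the difference between the sexes differed from that in gills or brain for many of the genes set beside the 5, by the interaction of sex and tissue in edgeR (adjusted p under 0.05). That test called 28.9% of all genes between liver and brain, 29.7% between liver and gills and 0.669% between gills and brain. Its fit has no term for the fish, so libraries of the same fish enter as separate samples. The contrast with the smallest p is given for each gene, as the female minus male log2 difference in the first tissue minus that in the second. The 5 genes themselves were chosen for such a difference and are left aside.

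Genes with a more female-sided liver were slc12a4, the neighbour of slc6a2, by 2.04 against gills, tagln by 1.75 against brain and nme6 by 1.21 against gills. From the lists, slc6a16a stood at 2.62, rorc at 2.56 and cacnb4a at 2.52 against brain. Against gills slc6a5 stood at 1.55, cacna1db at 1.28 and gga3a at 1.04. The genes on the other side of slc6a2, lpcat2 and mmp2, stood at -0.63 and -0.80 against gills.

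Genes with a more male-sided liver were ddc (-3.81), slc6a13 (-1.40), klf4 (-1.29), slc6a3 (-1.21), dusp6 (-1.13) and cacna1ba (-1.02) against brain. So were ptprc (-0.87), cacna1sb (-0.87), sh2d1ab (-0.86) and cd74a (-0.77). Against gills such genes were mao (-1.49), ctss2.1 (-1.12), rtn4a (-0.75) and cops7a (-0.63). None of cacnb4a, slc6a3, dusp6 and cacna1ba was called between the sexes in liver. In liver itself slc6a13 (-0.66), slc6a5 (0.59) and mmp2 (-0.39) were not called between the sexes. Their calls were in the other tissue, at 0.79 in brain for slc6a13 and at -1.01 and 0.41 in gills for slc6a5 and mmp2. For slc6a11b the smallest p was that between gills and brain, with a difference of -2.003, from -2.03 ± 0.26 in gills and -0.02 ± 0.09 in brain.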

How the results depend on the processing

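In liver the female-higher direction of the 5 genes held in every one of 9 other settings for each gene, from 1.38 (bace1 in fish with numbers under 100) to 5.15 (cacna1bb in fish with numbers over 200). The value of bace1 in fish over 200 was 3.99, further from 2.44 than the spread between libraries. The male-higher direction of baalcb, bace1, cacna1bb and cd4-1 in gills and of slc6a2 in brain held in all settings. The number of genes called in liver, 5271, was 3157 and 2573 within the 2 sets of fish numbers, and in gills 2378 became 1186 and 1504. Fewer samples enter those fits. Library totals in place of TMM gave 1017 female-higher and 6791 male-higher calls in liver, against 2164 and 3107, and all liver libraries gave 2294 and 1971.

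Replicate numbers of females and males belong to different fish and only share a number. Over 39, 36 and 29 shared numbers, 1, 1 and 0 females correlated best with the male of their number in brain, gills and liver. With the replicate number as a block, 1258, 1662 and 4270 genes were called in brain, gills and liver, and cd4-1 in liver stood at 1.91. In tissue tests the fish is the block. Without the fish as a replicate block cacna1bb was higher in liver than brain (1.62), cd4-1 higher in liver than gills (1.90) and slc6a2 past the threshold between liver and gills (1.32).

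In females alone the liver and brain values were 2.04 for cacna1bb, -0.17 for baalcb and -0.071 for slc6a2, and in males alone -2.67 for cacna1bb. Between liver and gills they were 0.14 for cd4-1 and 1.79 for slc6a2 in females alone, and 0.062 for baalcb, -0.998 for cacna1bb and -1.40 for slc6a2 in males alone, in whom bace1 was below the filter. limma voom gave 0.0060 for cacna1bb between liver and brain, and -0.18 for cd4-1 and 0.66 for slc6a2 between liver and gills. DESeq2 size factors gave -0.028 for slc6a2 between liver and gills. Library totals gave -2.25 for cacna1bb against brain, and -0.25 for cacna1bb and -1.57 for slc6a2 against gills. The split of tissue calls moved too: 6926 liver-higher and 8748 brain-higher calls became 5302 and 10481 with DESeq2 size factors and 1983 and 14741 with library totals, and 6324 liver-higher and 7878 gill-higher calls became 4716 and 9780, and 1408 and 14835.

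With the livers of vtg3 at the level of the other sex included, r with vtg3 was 0.40 for baalcb, 0.73 for bace1 and 0.74 for cacna1bb in males, and 0.47 for bace1 and 0.66 for slc6a2 in females, each past the threshold. By rho, of these only bace1 in females passed (0.55). The rho was -0.006, 0.17 and -0.002 for baalcb, bace1 and cacna1bb in males, and 0.25 for slc6a2 in females. With library totals r for cacna1bb in females was 0.41 (adjusted p = 0.066). By rho, slc6a2 at 0.69 and baalcb at 0.49 in females then passed the threshold, where TMM scaling gave 0.11 and 0.10. The 30 levels on TMM-scaled CPM moved by less than the spread between libraries, and no relation between tissues passed with another prior count or without the libraries against their label. The cause of these changes was not tested. Fits by fish number, and library totals in tissue fits, were chosen after seeing the data. Depth limits bace1 most, whose median in male livers, 0.415 CPM, lay near the 0.250 CPM that 3 counts give there.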
